A study of Mus musculus with 6 samples.

Results

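The genes described here are 10 ligands, receptors and an antagonist of the TGF-beta and BMP pathways, taken from the 34709 genes of the table by their gene names. They are Tgfb1, Tgfb2, Tgfb3, Bmp2, Bmp4, Bmp6 and Gdf5 (ligands), Tgfbr1 and Tgfbr2 (receptors) and Grem1 (antagonist), and each name was found once. Bulk RNA sequencing compared knockout (KO) with wildtype mice in articular cartilage, with 3 libraries labelled for each genotype. Values of a group are listed in the order of its replicates 1, 2 and 3. According to the methods, the mice of the aging experiment were male, the wildtype mice were littermates, the KO was on the C57BL/6J background and the sequenced cartilage was from animals of 18 months. The labels name no Cre or transgene, no treatment and no pooling of animals, and do not say whether each library came from a separate animal, so p-values measure only the spread between these samples.

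TGF-beta and BMP ligands are secreted dimers that bind pairs of type I and type II serine/threonine kinase receptors. The receptors phosphorylate Smad proteins, which move to the nucleus and regulate genes. In joints, TGF-beta signalling is known for keeping articular chondrocytes from hypertrophy and for coupling bone resorption to formation, whereas BMPs are known for driving chondrocyte and osteoblast differentiation. Gdf5 marks the embryonic joint interzone.

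The libraries were compared first. Total counts ranged from 52268311 to 63331135 per library. KO replicates 2 and 3 differed far less than any other pair: their noise ratio, the median squared difference of scaled counts over the value expected from Poisson sampling, was 5.82, and that of the other 14 pairs ranged from 24.2 to 87.2. They were averaged and counted as 1 sample, so 2 KO samples were compared with 3 wildtype samples. The library labelled KO replicate 1 was nearer to wildtype replicate 2 (noise ratio 26.3) than to KO replicates 2 and 3 (76.5 and 75.0). A check of the genotype labels also went against this library and not against KO replicates 2 and 3, so groups are named as labelled and every difference that includes it rests on that label. The value without it is printed for each tested member, and for other named genes where it moved by over 1.5 times or changed a call. Of 88 marker genes, 7 had a mean under 0.5 FPKM (3 of 5 for tendon and ligament, 2 of 10 for chondrocytes, 1 for adipocytes and 1 for macrophages). The summed FPKM of 10 chondrocyte markers was 4203, 1334 and 1333 in the KO libraries, against 1104, 2417 and 1717 in the wildtype libraries. Among 15 marker lists, the summed level was lower in every KO library than in every wildtype library for 6 lists (marrow stroma, adipocyte, endothelial, B cell, erythroid, and megakaryocyte and platelet) and higher for 2 (T and NK cell, and neutrophil and precursor), although 4 of the 5 T and NK cell genes had a log2 difference below 0. The groups overlapped for the other 7 lists (chondrocyte, osteoblast and osteocyte, fibroblast and synovium, tendon and ligament, skeletal muscle, macrophage and osteoclast). Values are from bulk tissue, in which fewer cells of a type and less RNA per cell cannot be told apart.

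None of the members passed the test between KO and wildtype. Of the 10 genes, 9 reached the mean of 0.5 FPKM required for testing, and 0 of 9 passed edgeR's quasi-likelihood test at the adjusted threshold of 0.05, against 0% of the 15373 tested genes. Unadjusted, 0 members were higher and 0 lower at 0.05, against 7.63% and 6.07% of all tested genes. With KO replicates 2 and 3 kept apart as labelled (6 samples), which counts a near-identical pair as 2 samples, 0 members passed the adjusted threshold, against 3.71% of all tested genes. The median log2 difference (KO minus wildtype) of the 9 members was -0.23 and that of all tested genes -0.02. Intervals were wide, and for Tgfb2 the 95% interval ran from -1.09 to 1.67.

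**Figure D1:**
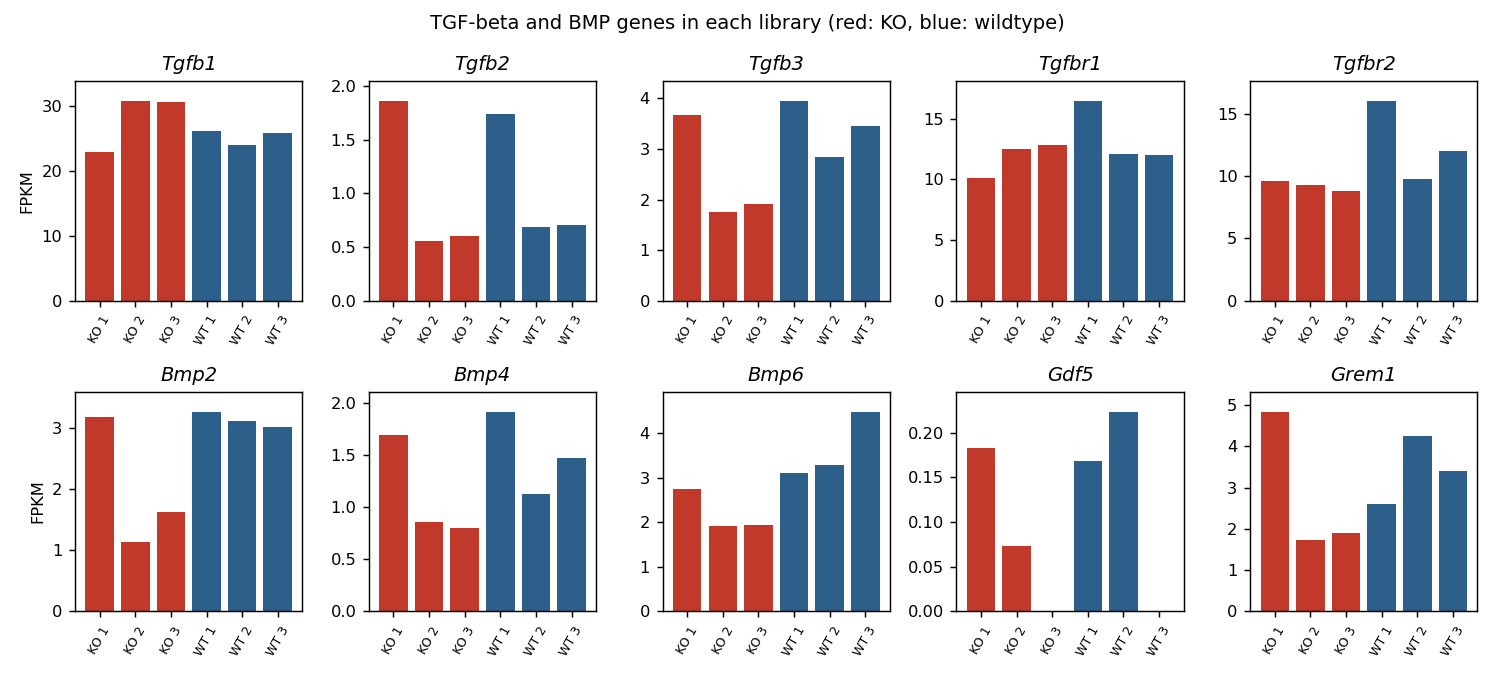
FPKM of each of the 10 members in each library, 1 bar per library, with KO in red and wildtype in blue and a separate linear scale from 0 in each panel. KO 2 and KO 3 are below every wildtype library for 7 members and above for Tgfb1, while KO 1 is below every wildtype library for Tgfb1, Tgfbr1, Tgfbr2 and Bmp6.

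Upstream sequences are shown for 3 members, Tgfb2 and Grem1, whose levels ranged most between libraries, and Tgfb1, whose level ranged least. The range of log2 CPM over the 6 libraries was 1.84 for Tgfb2, 1.60 for Grem1 and 0.31 for Tgfb1. Each sequence holds the 250 bases before the RefSeq start (GRCm38.p6), written 5′ to 3′ on the strand of the gene. They lie at chr1:186705990-186706239 (minus strand) for Tgfb2, chr2:113758649-113758898 (minus strand) for Grem1 and chr7:25686752-25687001 (plus strand) for Tgfb1. Capitals mark matches on either strand to the core promoter element TATAAA, the Sp1 motif GGGCGG and the short SMAD motif CAGAC, which do not overlap each other here.
Tgfb2: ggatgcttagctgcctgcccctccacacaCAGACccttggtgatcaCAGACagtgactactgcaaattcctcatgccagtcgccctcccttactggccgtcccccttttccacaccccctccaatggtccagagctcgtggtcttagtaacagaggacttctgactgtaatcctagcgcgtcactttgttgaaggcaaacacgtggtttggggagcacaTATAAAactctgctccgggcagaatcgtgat
Grem1: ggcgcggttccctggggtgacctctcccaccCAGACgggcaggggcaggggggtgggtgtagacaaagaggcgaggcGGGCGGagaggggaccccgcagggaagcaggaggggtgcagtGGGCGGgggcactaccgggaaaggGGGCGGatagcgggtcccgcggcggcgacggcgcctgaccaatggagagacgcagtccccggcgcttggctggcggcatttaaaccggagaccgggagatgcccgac
Tgfb1: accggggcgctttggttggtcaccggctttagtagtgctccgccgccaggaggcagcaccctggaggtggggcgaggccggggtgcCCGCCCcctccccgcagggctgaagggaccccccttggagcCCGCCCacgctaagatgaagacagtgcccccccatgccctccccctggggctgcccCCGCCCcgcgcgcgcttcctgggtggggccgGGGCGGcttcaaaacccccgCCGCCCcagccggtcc

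The Tgfb2 window held 1 match to TATAAA, with its first base at position -31 from the start, and 2 to CAGAC, whereas the Tgfb1 window held 5 matches to GGGCGG and none to the other motifs. The Grem1 window held 3 matches to GGGCGG and 1 to CAGAC. Of 27025 mouse genes with an upstream window of this length, 13.0% held TATAAA, 32.9% held GGGCGG and 42.1% held CAGAC. The GC content was 53.6% for Tgfb2, 72.0% for Grem1 and 75.2% for Tgfb1, and the median of all windows was 52.0%. The Tgfb2 window overlaps an exon of Gm29491 on the opposite strand in GENCODE M21. A match describes letters, and no binding was measured. RefSeq windows were found for 7 of the 10 members.

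The TGF-beta ligands were examined next. Tgfb1 (chromosome 7, 25687002 to 25705077, GRCm38 positions of the deposited table), the isoform abundant in blood cells, platelets and bone matrix, was the member with the highest level. It was at 22.9, 30.7 and 30.5 FPKM in the KO libraries and at 26.1, 24.0 and 25.7 FPKM in the wildtype libraries. KO replicates 2 and 3 were above every wildtype library and the library labelled KO replicate 1 was below every wildtype library, so the groups overlapped. The log2 difference was 0.10 (SE 0.134, adjusted p-value 0.847), and 0.24 without KO replicate 1.

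Tgfb3 (chromosome 12, 86056745 to 86079041), an isoform of mesenchymal tissues, was at 3.68, 1.76 and 1.92 FPKM in the KO libraries and at 3.95, 2.83 and 3.46 FPKM in the wildtype libraries. KO replicates 2 and 3 were below the lowest wildtype library, whereas the library labelled KO replicate 1 was inside the wildtype range. On the log2 scale, KO minus wildtype was -0.27 (SE 0.329, adjusted p-value 0.817), -0.17 without wildtype replicate 1 and -0.93 without KO replicate 1 (adjusted p-value 0.114 by edgeR).

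Tgfb2 (chromosome 1, 186622792 to 186705989), an isoform with a role in skeletal development, separated the libraries in another way. It was at 1.86, 0.559 and 0.606 FPKM in the KO libraries and at 1.74, 0.688 and 0.705 FPKM in the wildtype libraries. KO replicate 1 and wildtype replicate 1 were high and the other 4 libraries low, so 1 library of each genotype label carried most of the signal. Its log2 difference was 0.29 (SE 0.585, adjusted p-value 0.908), and it changed sign to -0.87 without KO replicate 1 and was 0.83 without wildtype replicate 1. Without wildtype replicate 2 or 3 it was 0.082 or 0.086.

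The make-up of the ligand pool does not depend on scaling between libraries. Tgfb1 gave 80.5%, 93.0% and 92.4% of the summed FPKM of Tgfb1, Tgfb2 and Tgfb3 in the KO libraries, against 82.1%, 87.2% and 86.1% in the wildtype libraries. The mean share was 86.6% ± 8.59 (SD, n = 2) in KO and 85.1% ± 2.67 (SD, n = 3) in wildtype. The difference of 1.47 percentage points was smaller than the spread between samples (exact two-sided permutation test, p = 1.0), and 2 samples against 3 cannot give a p-value below 0.2. The share of Tgfb3 fell between 5.33% and 12.9% of the pool, with KO replicates 2 and 3 the lowest libraries. Tgfb2 made up 1.69% to 6.54%. These shares are of bulk tissue, in which 7 neutrophil and precursor markers summed to 25494 to 59867 FPKM over the libraries. The 10 chondrocyte markers summed to 1104 to 4203 FPKM, and which cells made the Tgfb1 transcripts was not tested.

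**Figure D2:**
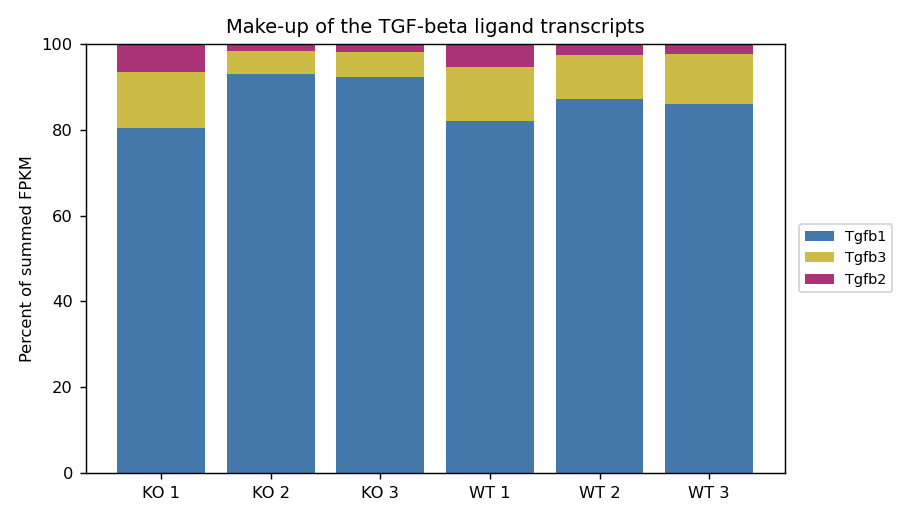
Stacked bars of the percent of the summed FPKM of Tgfb1, Tgfb2 and Tgfb3 in each of the 6 libraries. Tgfb1 makes up 80.5% to 93.0% in every library, and the parts of Tgfb3 and Tgfb2 are smallest in KO 2 and KO 3.

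Both receptors were measured at levels well above the BMP ligands. Tgfbr2 (chromosome 9, 116084293 to 116175360), the type II receptor that binds TGF-beta and activates the type I receptor, was at 9.57, 9.27 and 8.83 FPKM in the KO libraries and at 16.0, 9.73 and 12.0 FPKM in the wildtype libraries. All libraries labelled KO were below all wildtype libraries, but the highest KO library and the lowest wildtype library lay close together. The fitted log2 difference was -0.40 (SE 0.195, 95% interval -0.86 to 0.06, adjusted p-value 0.435), and -0.22 without wildtype replicate 1, the highest library. It was -0.50 without KO replicate 1.

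Tgfbr1 (chromosome 4, 47353222 to 47414931), the type I receptor whose kinase phosphorylates Smad2 and Smad3, was at 10.2, 12.5 and 12.8 FPKM in the KO libraries and at 16.5, 12.1 and 12.0 FPKM in the wildtype libraries. Wildtype replicate 1 stood above the other 5 libraries, and the groups overlapped. In the fit, the log2 difference was -0.23 (SE 0.164, adjusted p-value 0.637), -0.08 without wildtype replicate 1 and -0.12 without KO replicate 1. The FPKM ratio of Tgfbr1 to Tgfbr2 was 1.06, 1.35 and 1.45 in the KO libraries, against 1.03, 1.24 and 1.0 in the wildtype libraries.

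Among Bmp2, Bmp4 and Bmp6, the tested BMP ligands of the 10 genes, the fitted difference was lowest for Bmp6 and highest for Bmp4. Bmp6 (chromosome 13, 38345107 to 38500302), which also regulates hepcidin and iron balance, was at 2.75, 1.91 and 1.93 FPKM in the KO libraries and at 3.10, 3.30 and 4.49 FPKM in the wildtype libraries. It was lower in all 3 libraries labelled KO than in any wildtype library. The log2 difference was -0.60 (SE 0.267, 95% interval -1.23 to 0.02, adjusted p-value 0.385), -0.95 without KO replicate 1 and -0.42 without wildtype replicate 3. The groups failed to overlap, with KO lower, for 2 of 9 members (Bmp6 and Tgfbr2) against 13.7% of all tested genes, and with KO higher for 0 of 9 against 11.3%. Beside these 2 genes, the summed FPKM of the endothelial markers was 25.6 to 26.7 in KO and 27.7 to 43.2 in wildtype libraries, that of the marrow stroma markers 108 to 132 and 160 to 207, and that of the erythroid markers 572 to 793 and 1004 to 1421. The summed adipocyte, B cell, and megakaryocyte and platelet markers were likewise lower in every KO library than in every wildtype library, and 2 other lists were higher. The part of any of these cell types in the 2 results was not tested. Bmp6 shares its interval with Txndc5 on the opposite strand (27.0 to 34.8 FPKM), and whether the counting used strand is not stated.

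Bmp2 (chromosome 2, 133552159 to 133562885), an inducer of bone and cartilage formation, was at 3.19, 1.14 and 1.63 FPKM in the KO libraries and at 3.27, 3.13 and 3.03 FPKM in the wildtype libraries. The wildtype libraries were within a narrow range, the library labelled KO replicate 1 fell inside it, and KO replicates 2 and 3 were at 0.361 and 0.518 times the wildtype mean. On the log2 scale, KO minus wildtype was -0.42 (SE 0.361, adjusted p-value 0.707). Without KO replicate 1 it was -1.22 (SE 0.238, 95% interval -1.80 to -0.65), with an adjusted p-value of 0.0559 by edgeR, the lowest of any member under any setting. In that fit the averaged KO replicates 2 and 3 are the only KO sample, which is assumed to vary like the wildtype samples.

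Bmp4 (chromosome 14, 46383520 to 46390669), the close homologue of Bmp2, was the lowest of these ligands, at 1.70, 0.855 and 0.805 FPKM in the KO libraries and 1.92, 1.13 and 1.47 FPKM in the wildtype libraries. KO replicates 2 and 3 were again below every wildtype library, with the library labelled KO replicate 1 inside the wildtype range. Its log2 difference was -0.21 (SE 0.403, adjusted p-value 0.900), and -0.89 without KO replicate 1. It was -0.024 without wildtype replicate 1 and -0.36 without wildtype replicate 2.

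Gdf5 (chromosome 2, 155941023 to 155945367), a BMP family ligand of the joint lineage, was near the limit of detection and below the mean required for testing. It was tested only without that requirement, where 0 of 10 members passed. Its counts were 25, 13 and 0 in the KO libraries, against 26, 32 and 0 in the wildtype libraries, with a mean of 0.108 FPKM. A count of 0 allows, with 3 counts taken as the floor, up to 0.0474 CPM in KO replicate 3 and 0.0530 CPM in wildtype replicate 3, for counting error only. The 0 in KO replicate 3 beside 13 in KO replicate 2 was found in libraries otherwise close to each other, and a difference in Gdf5 was not detectable at this depth.

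Grem1 (chromosome 2, 113746164 to 113758646), a secreted protein that binds BMP2, BMP4 and BMP7 and keeps them from their receptors, was at 4.84, 1.72 and 1.9 FPKM in the KO libraries and at 2.60, 4.24 and 3.40 FPKM in the wildtype libraries. The KO libraries included both the highest and the lowest values, with KO replicate 1 above and KO replicates 2 and 3 below every wildtype library. The fitted log2 difference was -0.0024 (SE 0.437, 95% interval -1.03 to 1.03, adjusted p-value 0.999), -0.96 without KO replicate 1 (adjusted p-value 0.188 by edgeR) and 0.22 without wildtype replicate 2. The summed FPKM of Bmp2, Bmp4 and Bmp6 was 1.58, 2.27 and 2.30 times that of Grem1 in the KO libraries and 3.19, 1.78 and 2.65 times in the wildtype libraries. This sum leaves out Bmp7 and includes Bmp6, which is not among the ligands named above and made up 36.0% to 49.9% of it. The ratio overlapped between the groups, although the summed ligand level was 7.64, 3.90 and 4.37 FPKM in the KO libraries and 8.29, 7.55 and 8.99 FPKM in the wildtype libraries.

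**Figure D3:**
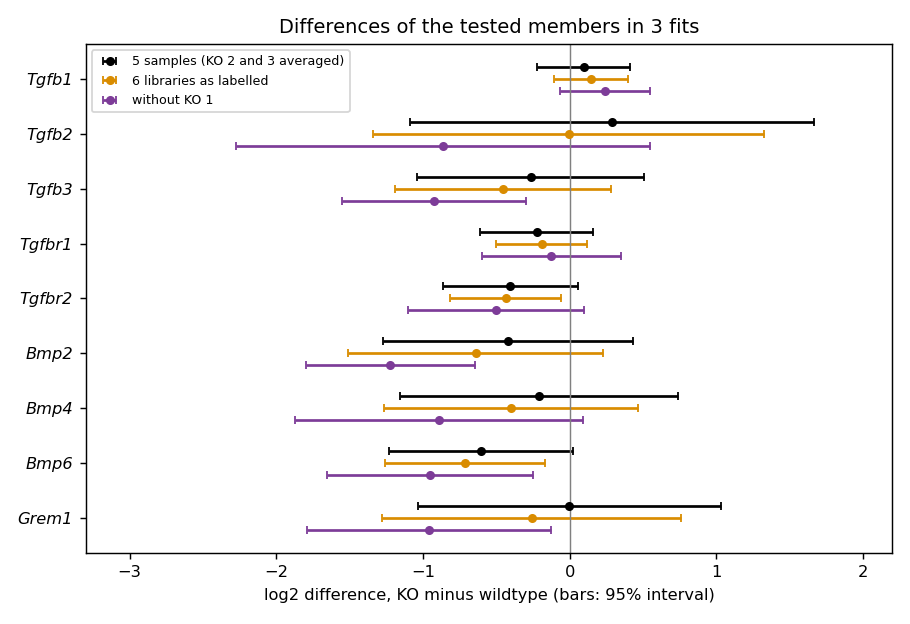
Log2 difference (KO minus wildtype) of the 9 tested members with 95% intervals from 3 fits: 5 samples with KO 2 and KO 3 averaged (black), 6 libraries as labelled (orange) and without KO 1 (purple). Without KO 1, the points of Tgfb2, Tgfb3, Bmp2, Bmp4, Bmp6 and Grem1 lie between -1.22 and -0.87.

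KO replicates 2 and 3, counted as 1 sample, were below every wildtype library for 7 of the 9 tested members (Tgfb2, Tgfb3, Tgfbr2, Bmp2, Bmp4, Bmp6 and Grem1), against 25.8% of all tested genes, and above for 1 member (Tgfb1), against 30.1%. The library labelled KO replicate 1 was below the wildtype range for 2 of these 7 genes (Tgfbr2 and Bmp6), inside it for 3 (Tgfb3, Bmp2 and Bmp4) and above it for 2 (Tgfb2 and Grem1). Without that library, 4 of 9 members (Tgfb3, Bmp2, Bmp6 and Grem1) were lower at an unadjusted p-value under 0.05, against 9.89% of all tested genes, and 0 of 9 passed the adjusted threshold, against 2.29%. In the same libraries, the summed skeletal muscle markers were at 127, 4.27 and 3.43 FPKM in KO replicates 1, 2 and 3 and the adipocyte markers at 27.4, 10.9 and 10.7 FPKM, against 29.7 to 239 and 41.8 to 151 FPKM in wildtype. The chondrocyte markers were lower in KO replicates 2 and 3 than in KO replicate 1, but inside the wildtype range. The part of tissue make-up in the members' values was not tested.

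The order of the levels, compared per length, was stable for Tgfb1 at the top and Gdf5 at the bottom. Tgfb1 exceeded Tgfbr1, Tgfbr1 exceeded Tgfbr2 and Tgfbr2 exceeded Grem1 in 6 of 6 libraries, with means of 26.7, 12.7, 10.9 and 3.12 FPKM. The receptors were nearly tied in some libraries, so their order was not clear. The Tgfbr1 to Tgfbr2 ratio was 1.0 in wildtype replicate 3 and 1.03 in wildtype replicate 1, and reached 1.45 in KO replicate 3. Grem1, Tgfb3, Bmp6 and Bmp2 (means of 3.12, 2.93, 2.91 and 2.56 FPKM) changed places between libraries and were not separated beyond their spread. Bmp2 exceeded Bmp4 (1.31 FPKM) in 6 of 6 libraries, Bmp4 exceeded Tgfb2 (1.03 FPKM) in 5 of 6, and Gdf5 was last in 6 of 6.

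Genes with the most similar pattern over the 6 libraries were sought for Tgfb2 and Grem1, as the root mean square difference of centred log2 CPM among genes of at least 5 FPKM. For Tgfb2 the nearest gene was Mepe, a matrix protein of osteocytes, at a distance of 0.11. Mepe was at 70.5, 23.4 and 24.3 FPKM in the KO libraries and at 64.4, 29.4 and 33.0 FPKM in the wildtype libraries. Dmp1, which is also expressed by osteocytes, followed at 0.27, with 50.7, 23.5 and 22.5 FPKM in the KO libraries and 73.2, 33.9 and 32.4 FPKM in the wildtype libraries. Like Tgfb2, both were high in KO replicate 1 and wildtype replicate 1. The third gene was Gm49980 (distance 0.30). The summed FPKM of all 8 osteoblast and osteocyte markers had another pattern, at 941, 666 and 679 in the KO libraries and 1567, 1774 and 627 in the wildtype libraries. The part of osteocytes in the Tgfb2 values was not tested.

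For Grem1 the nearest gene was S100b, a calcium-binding protein made by chondrocytes and glia, at a distance of 0.10. S100b was at 22.6, 7.46 and 7.63 FPKM in the KO libraries and at 10.3, 16.2 and 13.7 FPKM in the wildtype libraries. Omd, a leucine-rich matrix protein of bone, was at a distance of 0.13, with 37.8, 13.7 and 12.6 FPKM in the KO libraries and 17.2, 26.6 and 23.6 FPKM in the wildtype libraries. The third was Gm9396 (0.14). The summed chondrocyte markers were likewise highest in KO replicate 1, followed by wildtype replicates 2 and 3, but lowest in wildtype replicate 1, and their part in the Grem1 values was not tested. Among the members, Tgfb3 and Bmp4 were the closest pair (0.11). These distances describe 6 libraries that include 1 near-identical pair, and carry no test.

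**Figure D4:**
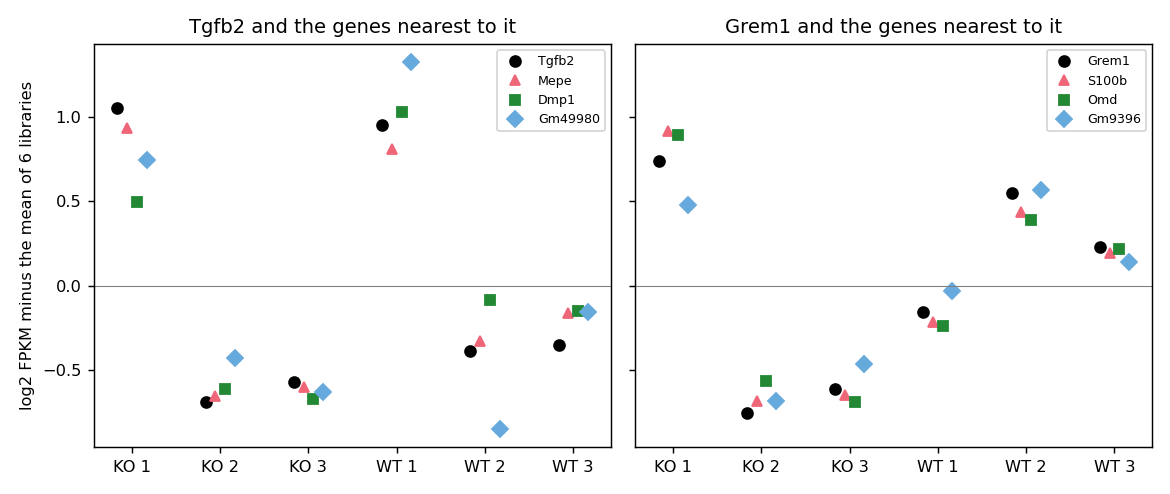
Log2 FPKM minus the mean over the 6 libraries for Tgfb2 (left) and Grem1 (right) with the 3 genes nearest to each, 1 point per gene and library. Tgfb2, Mepe and Dmp1 are high in KO 1 and WT 1, and Grem1, S100b and Omd are highest in KO 1 and lowest in KO 2 and KO 3.

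The other genes of the pathway were then taken by role from a list of 81 genes, the members included. Of these, 68 were tested and 0 passed the adjusted threshold, against 0% of all tested genes. The 59 tested genes that are not members counted 27 higher and 32 lower, with a median log2 difference of -0.08, and 5 were higher and 4 lower at an unadjusted p-value under 0.05, against 7.63% and 6.07% of all tested genes. The groups did not overlap for 6 of the 59 with KO lower and 8 with KO higher, against 13.7% and 11.3%, so these counts were near the background. With KO replicates 2 and 3 kept apart, 3 passed the adjusted threshold (Acvrl1, Furin and Tgfbi, all higher in KO), against 3.71% of all tested genes. Without KO replicate 1, the averaged KO replicates 2 and 3 are the only KO sample, so the spread within KO is not estimated. In that fit Acvrl1 was at 1.05 and Tgfbi at 1.46 on the log2 scale. Nbl1, a secreted BMP antagonist named after its values were seen, was at -1.62, against -0.42 with KO replicate 1.

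Receptors and co-receptors had 9 tested genes beside the members, of which 0 passed the adjusted threshold. Acvrl1, the type I receptor of BMP9 and BMP10 in endothelium, was at 11.1, 14.8 and 14.0 FPKM in the KO libraries and at 6.38, 6.0 and 7.94 FPKM in the wildtype libraries. The summed endothelial markers were lower in every KO library. In contrast, Acvrl1, named for its small p-value, had every library labelled KO above every wildtype library, as 11.3% of all tested genes did. The fit gave a log2 difference of 0.92 (SE 0.164) and an adjusted p-value of 0.166, and keeping KO replicates 2 and 3 apart gave 0.97 and 0.0358 by edgeR. Its co-receptor Eng, an endothelial glycoprotein, was at 6.42, 7.92 and 7.61 FPKM in KO and 11.9, 7.84 and 9.89 FPKM in wildtype. KO minus wildtype was -0.45 on the log2 scale (adjusted p-value 0.325). Acvr1b, the activin type I receptor, had a log2 difference of 0.64 (adjusted p-value 0.269).

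Among 8 other tested ligands 2 were higher and 6 lower, and 0 passed. Those with the smallest p-values were Gdf11 (log2 difference -0.48), Bmp3 (-0.71) and Inhba, the subunit of activin A (0.32), with adjusted p-values of 0.534, 0.618 and 0.675. Bmp3, a ligand that antagonises other BMPs, was at 4.19 FPKM in wildtype replicate 1 and at 1.11 to 1.88 FPKM in the other 5 libraries, and its difference was -0.078 without wildtype replicate 1. Without KO replicate 1 Inhba was at 0.69 and Gdf11 at -0.74 on the log2 scale, and Gdf11 was at -0.30 without wildtype replicate 1.

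In the role of latent storage and activation 10 genes were tested, of which 0 passed on the 5 samples. Furin, the protease that cleaves TGF-beta and BMP precursors, was at 10.1, 12.8 and 11.9 FPKM in the KO libraries and at 8.33, 8.48 and 8.68 FPKM in the wildtype libraries. KO minus wildtype was 0.42 on the log2 scale (SE 0.120, adjusted p-value 0.214). With KO replicates 2 and 3 kept apart, its adjusted p-value was 0.0497 by edgeR. Nrros, which anchors latent TGF-beta1 on myeloid cells, was at 26.6, 36.7 and 33.9 FPKM in KO and 23.8, 21.8 and 24.0 FPKM in wildtype. KO minus wildtype was 0.43 on the log2 scale (adjusted p-value 0.231). For both genes, named for their small p-values, the groups did not overlap, with KO higher, as for 11.3% of all tested genes. The 7 neutrophil and precursor markers all had a log2 difference above 0. They summed to 48140 to 59867 FPKM in KO and 25494 to 41792 FPKM in wildtype. Of the 5 tested macrophage markers 3 were lower and 2 higher. That list summed to 237 to 289 FPKM in KO and 271 to 349 FPKM in wildtype. The part of either list in the Furin and Nrros values was not tested. Bmp1, the procollagen C-proteinase, had a log2 difference of -0.59 (adjusted p-value 0.453), and of -0.33 without wildtype replicate 1.

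Secreted antagonists other than Grem1 had 8 tested genes. Chrdl1, a chordin-like protein, was at 2.65, 1.48 and 1.95 FPKM in KO and 4.61, 3.32 and 4.59 FPKM in wildtype. KO minus wildtype was -0.90 on the log2 scale (SE 0.253, adjusted p-value 0.203). For Chrdl1, named for its small p-value, the groups did not overlap, with KO lower, as for 13.7% of all tested genes. Log2 differences were -0.77 for Fstl3, an activin-binding follistatin-like protein, and 0.66 for Chrdl2, with adjusted p-values of 0.453 and 0.520. Without KO replicate 1 they were -0.42 and 0.13. All 13 Smads and their regulators were tested and 0 passed, with log2 differences of 0.25 for Smad2, 0.24 for Smad4 and 0.24 for the ubiquitin ligase Smurf1 as those with the smallest p-values (adjusted p-values 0.450, 0.474 and 0.584).

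Response genes of the pathway did not share a direction, with 10 of 16 higher and 6 lower and a median log2 difference of 0.05. Tgfbi, a matrix protein first found as induced by TGF-beta, was at 39.6, 85.5 and 86.5 FPKM in the KO libraries and at 30.3, 28.9 and 32.0 FPKM in the wildtype libraries. Its log2 difference was 1.05 (SE 0.265, adjusted p-value 0.182), 0.46 without KO replicates 2 and 3, and 1.20 with KO replicates 2 and 3 kept apart (adjusted p-value 0.0478 by edgeR). Postn, a matricellular protein of periosteum and ligament, was at 2.92, 1.85 and 2.08 FPKM in KO and 9.53, 4.51 and 3.82 FPKM in wildtype. KO minus wildtype was -1.24 on the log2 scale (SE 0.406, adjusted p-value 0.253), and -0.76 without wildtype replicate 1, the highest library. Pmepa1, a feedback inhibitor of TGF-beta signalling, was at 3.88, 2.40 and 2.33 FPKM in KO and 7.67, 4.67 and 4.56 FPKM in wildtype. KO minus wildtype was -0.81 on the log2 scale (SE 0.314, adjusted p-value 0.321), and -1.28 without KO replicate 1. For these 3 genes, named for their small p-values, the groups did not overlap (13.7% of all tested genes with KO lower and 11.3% with KO higher), with KO higher for Tgfbi and lower for Postn and Pmepa1.

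**Figure D5:**
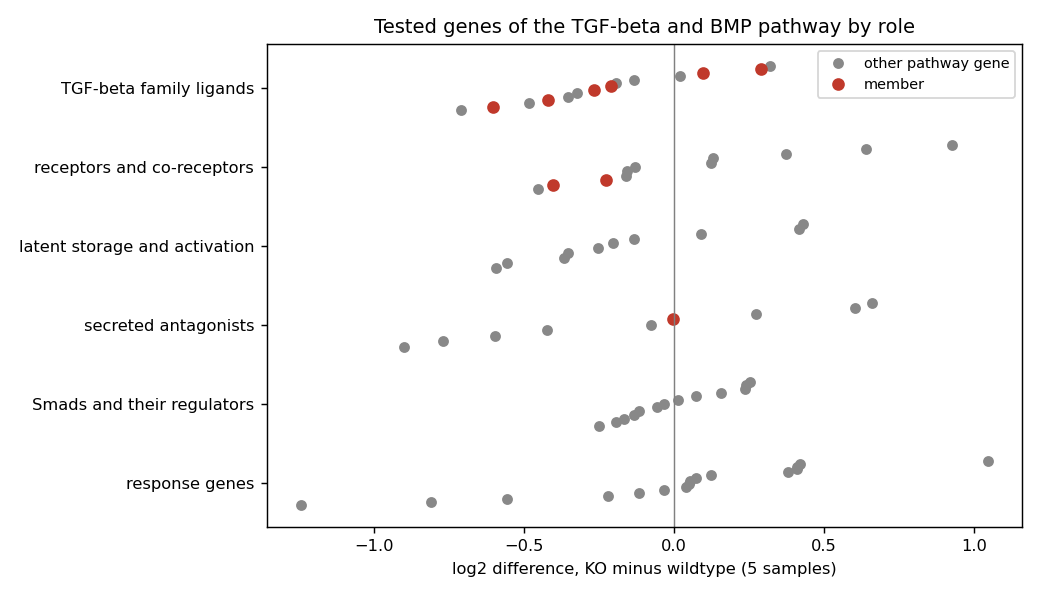
Log2 difference (KO minus wildtype, 5 samples) of the 68 tested pathway genes by role, 1 point per gene, with members in red and other genes in grey; genes with 2 roles appear in both rows. Members lie between -0.60 and 0.29, and the widest points are Postn at -1.24 and Tgfbi at 1.05.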

How the data were processed

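Articular cartilage of KO and wildtype mice was profiled by strand-specific, oligo(dT)-selected RNA sequencing. Groups and replicate numbers came from the sample titles. The targeted gene is not reported here. The authors deposited, for each of 6 libraries, an FPKM value (fragments scaled to transcript length and library total) and a whole-number count per gene. The submitters' processing notes name cutadapt 1.9, HISAT2 2.0.4, UMI-tools, StringTie 1.3.4d, DESeq2 and edgeR without roles. Low counts piled up at 4 (6596 values, against 4170 at 3), so the deposited counts were treated as estimates. Positions are those of the table; 87.0% of 34607 genes had the same position in GENCODE M21 (GRCm38).

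KO replicates 2 and 3 were averaged (counts rounded). Genes whose mean reached 0.5 FPKM were tested with edgeR 4.0.16 (quasi-likelihood, TMM; R 4.3.3) and adjusted by the Benjamini-Hochberg method over all 15373 genes, with calls at an adjusted p-value under 0.05. Standard errors were derived from the F statistic. The script was tested on simulated data. Alternatives were limma 3.58.1 on log2(FPKM + 1) and log2(FPKM + 0.1), DESeq2 1.42.0, median-of-ratios scaling, no filter or a minimum of 5 FPKM, unmerged libraries, a replicate block, and libraries left out. The members, pathway roles and the 15 marker lists were chosen with earlier results of these data known. Named were all members, in each role the 3 tested non-members with the smallest p-values, and for the 2 tested members of widest range the 3 genes of nearest pattern. Upstream sequences came from RefSeq (GRCm38.p6).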

Additional observations from a re-analysis of the deposited data

How the results depend on the processing

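Of 129 values of the 9 members in the main test under 15 alternatives, 116 kept their direction and side of the threshold, 13 changed sign and 0 passed it. Called members numbered 0 under every alternative. Over all tested genes the count of calls was 0 on the 5 samples (2106 at an unadjusted p-value under 0.05), 21 without the low-value filter, 880 by DESeq2, 570 with the 6 libraries as labelled, 9 without KO replicates 2 and 3, and 0 to 352 with 1 library left out, the 352 being without KO replicate 1. Without KO replicate 1, and without KO replicates 2 and 3, 1 KO sample is left, so the spread within KO is not estimated. Limma called 0 genes (1800 and 1826 unadjusted). Called pathway genes were 5 by DESeq2 (Acvrl1, Furin, Chrdl1, Tgfbi and Postn), 3 with the 6 libraries and 0 to 3 with 1 library left out. The minimum of 5 FPKM left 3 members.

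Without KO replicates 2 and 3 the log2 difference was -0.061 for Tgfb1, 0.19 for Tgfb3, 0.10 for Bmp2, 0.26 for Bmp4, 0.58 for Grem1 and -0.17 for Inhba, and the Tgfb1 share difference was -4.61 percentage points with no test. That share difference ran from -0.042 (without wildtype replicate 1) to 7.54 (without KO replicate 1) with 1 library left out. Tgfb2 was at -0.0058 with the 6 libraries and, with 1 library left out, at -0.87 (without KO replicate 1) to 0.83 (without wildtype replicate 1). Grem1, near 0 on the 5 samples, was at 0.017 without the filter, 0.0054 with median-of-ratios scaling, 0.0061 by DESeq2, 0.016 without KO replicate 2 and 0.22 without wildtype replicate 2, the highest with 1 library left out, the lowest being -0.96. Without KO replicates 2 and 3, values that moved by over 1.5 times with no change of sign were -0.32 for Bmp6, 0.93 for Tgfb2, 0.28 for Acvr1b, 0.28 for Nrros, 0.16 for Smad2, -0.57 for Chrdl1, -0.45 for Pmepa1, 0.46 for Tgfbi, -0.25 for Gdf11, -1.25 for Fstl3 and 1.05 for Chrdl2. The cause of these changes was not tested.

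No pairing of samples by replicate number was seen. Same-numbered libraries had correlations of deviations of -0.14, -0.11 and -0.058, and 0 of 6 correlated best with their own number. Because KO replicates 2 and 3 were near-identical, this check could not exclude a pairing. With the replicate block 0 genes were called (2809 unadjusted), and Tgfb2 was at -0.14.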
